A study of Mus musculus with 6 samples.

Results

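The transcripts described here are those of the mitochondrial genome, taken as the 37 rows of the gene table whose symbol starts with mt-, out of 52636 rows in all. They comprise 13 protein-coding genes, 2 ribosomal RNAs (Mt_rRNA) and 22 transfer RNAs (Mt_tRNA). The tissue was the vestibular epithelium of male 129S1/SvImJ mice from a local colony, 2 to 4 months old when the experiment began. The 3 IDPN mice drank water with 30 mM 3,3'-iminodipropionitrile (IDPN) for 8 weeks, and the 3 Control mice drank plain water. IDPN is a nitrile toxic to hair cells (HCs), the mechanosensory cells of the inner ear. For this exposure the authors roughly estimated, from mice of an earlier study, that hair bundle number in the central utricle was unchanged. They also saw HCs being expelled from the epithelium. Each library was made from 1 animal, from 2 utricles and 6 cristae pooled, with oligo-dT priming of polyadenylated RNA (SMART-seq2). The comparison of IDPN with Control asked which transcripts of the sensory epithelium differ during a chronic exposure that damages HCs. The labels place all 6 libraries in a single batch, and the animal codes of the 3 Control mice share a stem that no IDPN mouse carries, so a difference between those stems and the exposure cannot be told apart.

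The mitochondrial genome is a small circle that is transcribed from both strands as long precursors, which are cut at the tRNAs into individual mRNAs and rRNAs and then polyadenylated. Its mRNAs encode core subunits of respiratory complexes I, III and IV and of ATP synthase (complex V), and its rRNAs form the mitochondrial ribosome. All other mitochondrial proteins, the polymerase that transcribes the circle among them, come from nuclear genes. Respiring epithelia hold large amounts of these transcripts, and HCs and ion-transporting cells of the inner ear are rich in mitochondria.

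The 3′ ends of 3 reading frames are printed because the annotated gene stops inside the stop codon, which is completed only when the poly(A) tail is added. That tail is also what the oligo-dT primer binds. The ends of mt-Nd1 and mt-Co1, annotated with a whole stop codon, are given for comparison. However, the last 2 bases of the annotated mt-Nd1 also belong to the tRNA gene mt-Ti on the same strand. mt-Nd2 overlaps the tRNA gene mt-Tw by 2 bases in the same way. Whether those bases stay on the mRNA after the tRNAs are cut out was not tested. The last 30 bases follow, 5′ to 3′, from the GENCODE transcripts on GRCm38, and the capitals mark the stop codon or the part of it that the genome holds.
mt-Co3: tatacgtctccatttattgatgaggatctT
mt-Nd4: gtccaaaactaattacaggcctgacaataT
mt-Cytb: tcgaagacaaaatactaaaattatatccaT
mt-Nd1: tttacagcgggagtaccaccatacataTAG
mt-Co1: gaggaaccaacctatgtaaaagtaaaaTAA
mt-Co3 lies at chrM:8607-9390, mt-Nd4 at chrM:10167-11544, mt-Cytb at chrM:14145-15288, mt-Nd1 at chrM:2751-3707 and mt-Co1 at chrM:5328-6872, all on the plus strand and each a single exon. The remaining 10 of the 13 reading frames, mt-Nd1 and mt-Co1 included, end in a whole stop codon as annotated.

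A second set of sequences is printed because it limits what the counts of 7 members can show. A block of pseudogenes on chromosome 1 (chr1:24611535-24616197, minus strand, GRCm38) holds 7 gene models that match 1 mitochondrial gene each over at least 99% of aligned bases. Gm28437, at chr1:24613189-24613971, matches mt-Co3 at all 783 of its bases. Gm28438, at chr1:24612775-24613119, matches mt-Nd3 (chrM:9459-9806, plus strand) over 345 bases at 99.71% and carries 1 substitution, T3C, counted from 1 at the 5′ end of mt-Nd3. The first bases of both pairs follow, and the capital marks the substituted base.
mt-Co3: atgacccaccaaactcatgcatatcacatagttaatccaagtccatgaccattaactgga
Gm28437: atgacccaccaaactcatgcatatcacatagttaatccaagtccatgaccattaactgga
mt-Nd3: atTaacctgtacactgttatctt
Gm28438: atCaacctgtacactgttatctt
Gm28439 (mt-Nd4, 876 bases), Gm10222 (mt-Nd4l, 294 bases), Gm10925 (mt-Atp6, 678 bases) and Gm28661 (mt-Co2, 681 bases) match at 100%, and Gm29216 matches mt-Co1 over 483 bases with 1 substitution, A1066T. A read that lies within such a stretch fits both places equally, and RSEM, the tool behind the counts, divides it between them. The 8 other measured members have no nuclear gene model at that identity. A further 4 models on chromosomes 2 and 13 matched mt-Nd2, mt-Co1, mt-Co2 or mt-Nd5 at 95% or more, and none held over 109 counts in any library.

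All 22 tRNA rows were listed at 0 in all 6 libraries. The shortest of them, mt-Ts2 (a serine tRNA, chrM:11613-11671, plus strand), has 59 bases, and the longest, mt-Tl1 (a leucine tRNA, chrM:2676-2750, plus strand), has 75, so each is shorter than one sequenced read of 76 bases. Both are printed to show what these rows hold.
mt-Ts2: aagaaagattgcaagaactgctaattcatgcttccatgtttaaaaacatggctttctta
mt-Tl1: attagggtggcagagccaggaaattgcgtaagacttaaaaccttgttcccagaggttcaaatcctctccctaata
With totals of 40474847 to 43566332 counts per library, a count of 0 allows up to 3 counts, or 6.89e-06% to 7.41e-06% of a library, counting error only. No comparison could be made for the tRNAs, and the 15 measured members below are the mRNAs and rRNAs.

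Mitochondrial RNA took a smaller share of the libraries of the IDPN mice. The 15 measured genes received 13.003%, 11.2% and 10.1% of all counts in Control replicates 1 to 3 and 8.48%, 8.15% and 9.92% in IDPN replicates 1 to 3. The groups did not overlap, but Control replicate 3 and IDPN replicate 3 lay close together. Control animals averaged 11.5% ± 1.44 and IDPN animals 8.85% ± 0.942 (SDs over 3 animals), and a two-sided exact permutation test gave p = 0.1, which is as low as 3 against 3 animals can go. The mRNA rows alone held 9.49% ± 1.13 in Control and 7.54% ± 0.792 in IDPN, and the rRNA rows 1.97% ± 0.381 and 1.32% ± 0.178 (SD, n = 3 each). On the log2 scale of summed normalized counts, IDPN minus Control was -0.59 for the mRNAs and -0.83 for the rRNAs, both without overlap (exact permutation p = 0.1). The 7 nuclear copies held a further 2.83% ± 0.187 in Control animals and 2.31% ± 0.172 in IDPN animals, and with them the share on mitochondrial sequence was 14.3% against 11.2%. A lower share was also seen outside the mt- rows, in a set that still holds mitochondrial sequence. The 100 most abundant nuclear genes, with nuclear copies not left out, took 48.7%, 48.3% and 43.4% of counts outside the mt- rows in Control. In IDPN they took 40.4%, 43.2% and 41.3%, again without overlap (exact permutation p = 0.1). Of the 7 nuclear copies, 4 were among the 100 most abundant rows, so this set includes reads that match mitochondrial genes. Whether the groups stay apart without those copies was not tested.

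**Figure D1:**
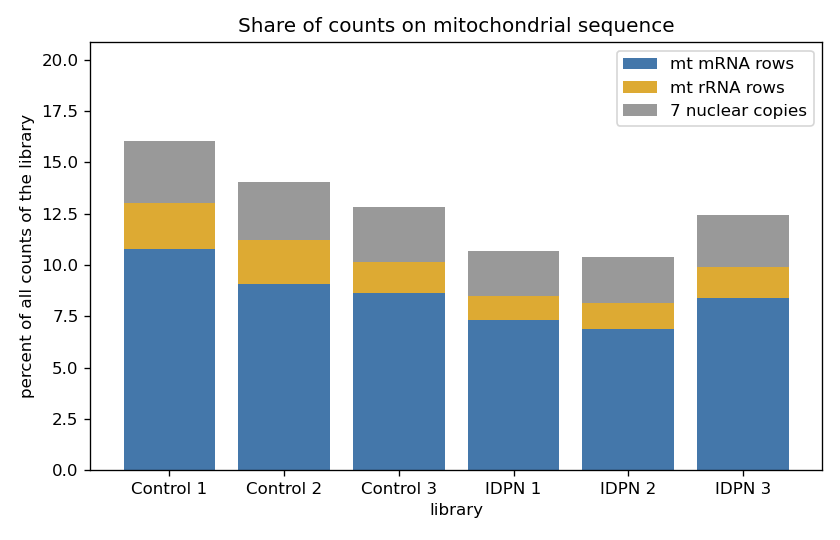
Percent of all counts (vertical axis) on the mitochondrial mRNA rows, the mitochondrial rRNA rows and the 7 near-identical nuclear copies, stacked, for each of the 6 libraries (horizontal axis). Control replicate 1 stands highest at 16.04% in all, IDPN replicate 2 lowest at 10.4%, and Control replicate 3 (12.8%) is close to IDPN replicate 3 (12.4%).

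At the level of single genes, all 15 measured members had a negative log2-Fold_Change and 10 of them were downregulated, with none upregulated. A gene was called when its Padj in the DESeq2 Wald test was under 0.05 and its change exceeded 1.5-fold. Of 17650 genes tested, 3.42% were called lower and 2.32% higher. The called members were both rRNAs and 8 mRNAs, and the median log2-Fold_Change of the 15 was -0.73, against 0.02 over all genes tested. The tissue is a mixture, so fewer mitochondria-rich cells and less mitochondrial RNA per cell cannot be told apart.

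The rRNAs were among the members with the largest differences. mt-Rnr1, the RNA of the small subunit of the mitochondrial ribosome, had normalized counts of 28808, 27570 and 17078 in the Control libraries and 9562, 11818 and 15397 in the IDPN libraries. Every IDPN library was below every Control library, though IDPN replicate 3 was only slightly below Control replicate 3. Its log2-Fold_Change was -0.998 ± 0.23 (SE; DESeq2 Padj = 0.000494). mt-Rnr2, the large-subunit RNA, read 1118730, 1018790 and 574740 in Control and 388857, 547576 and 554754 in IDPN. The groups again did not overlap and Control replicate 3 again lay next to the IDPN libraries. Its log2-Fold_Change was -0.86 ± 0.23 (SE; DESeq2 Padj = 0.00686).

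Of the 7 mitochondrial subunits of complex I, the entry point of electrons from NADH, 6 were downregulated. mt-Nd5 read 193255, 177132 and 117804 normalized counts in Control and 83232, 105062 and 89770 in IDPN, with no overlap. Its log2-Fold_Change was -0.81 ± 0.20 (SE; DESeq2 Padj = 0.00165). mt-Nd2 read 56568, 43109 and 34343 against 22873, 24774 and 29722, also without overlap, and was downregulated at -0.79 ± 0.20 on the log2 scale (SE; DESeq2 Padj = 0.00237). mt-Nd6, the one mRNA read from the other strand, read 9459, 8047 and 5376 against 3836, 4265 and 4917. Its groups did not overlap and its log2-Fold_Change was -0.81 ± 0.21 (SE; DESeq2 Padj = 0.00341). The library preparation does not mark strand, however, and both strands are transcribed as long precursors. Counts of mt-Nd6 therefore cannot be told apart from plus-strand RNA across the gene, including the 14 bases where it lies opposite mt-Nd5.

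mt-Nd1 and mt-Nd4, the other abundant subunits of complex I, differed less clearly. mt-Nd1 read 834714, 643423 and 443120 in Control and 324532, 386868 and 444608 in IDPN, so IDPN replicate 3 was just above Control replicate 3. mt-Nd4 read 511793, 378623 and 282715 against 204435, 243605 and 291593, with the same overlap. Both were called, mt-Nd1 at a log2-Fold_Change of -0.73 (DESeq2 Padj = 0.0186) and mt-Nd4 at -0.67 (DESeq2 Padj = 0.0378). mt-Nd3, read at 6746, 6696 and 3855 against 3280, 3797 and 3339, was called at -0.73 (DESeq2 Padj = 0.0141). mt-Nd4l, whose reading frame overlaps that of mt-Nd4 by 7 bases, held only 169, 190 and 172 normalized counts in Control and 51.3, 131 and 99.9 in IDPN, without overlap but with DESeq2 Padj = 0.0849 at a log2-Fold_Change of -0.92.

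The mitochondrial core subunits of complex IV, which hands electrons to oxygen, gave 2 calls among 3 genes. mt-Co1, the member with the most counts per base in Control before the nuclear copies are counted, read 1815710, 1451940 and 1141130 in Control and 881452, 1049430 and 962906 in IDPN. The groups did not overlap, and its log2-Fold_Change was -0.61 ± 0.19 (SE; DESeq2 Padj = 0.0229). mt-Co3 read 73433, 71707 and 50372 against 28941, 38416 and 36705, without overlap. Its log2-Fold_Change was -0.91 ± 0.19 (SE) and its DESeq2 Padj of 9.82e-05 was the lowest of the 15. mt-Co2 read 206392, 226964 and 166370 against 133044, 144652 and 122953, and although its groups did not overlap and its DESeq2 Padj was 0.0107, its log2-Fold_Change of -0.58 did not reach the 1.5-fold limit.

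Neither subunit of ATP synthase nor cytochrome b was called. mt-Atp6, part of the proton channel, read 772316, 578609 and 420273 in Control and 291618, 346652 and 480069 in IDPN, with overlapping groups and a DESeq2 Padj of 0.0634 at a log2-Fold_Change of -0.66. mt-Atp8, whose reading frame shares 43 bases with that of mt-Atp6, had a log2-Fold_Change of -0.70 (DESeq2 Padj = 0.125). mt-Cytb, the only mitochondrial subunit of complex III, read 1037620, 856263 and 654467 against 541321, 656231 and 708961. Its groups overlapped, and its log2-Fold_Change of -0.42 ± 0.19 (SE; DESeq2 Padj = 0.217) was the smallest of the 15.

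**Figure D2:**
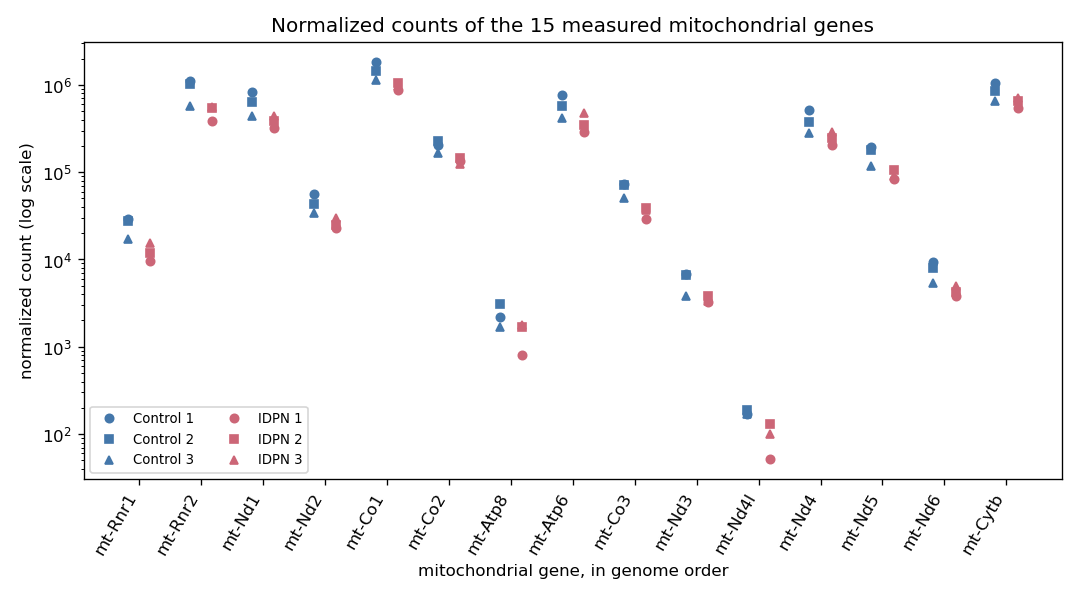
Normalized count (vertical axis, log scale) of the 15 measured mitochondrial genes in genome order (horizontal axis), with a symbol per library, Control in blue and IDPN in red. In 10 genes all IDPN points lie below all Control points, and Control replicate 3 is the lowest Control point in 14 of the 15, the exception being mt-Nd4l.

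Without regard to calls, every IDPN library was below every Control library in 10 of the 15 members, where 11.4% of all genes tested showed that order and 22.5% did not overlap in either direction. With Padj under 0.05 alone, 11 of the 15 were lower, against 3.9% of genes tested. The call was not the same in other fits. The edgeR quasi-likelihood test called none of the 15, with a lowest Padj of 0.0619 for mt-Co3, against 2.19% of genes called lower, and 11 of the 15 had an unadjusted p under 0.05. The share of all genes under that unadjusted limit was not taken, here or below. Size factors from total counts, which moved the median log2-Fold_Change of well-counted genes from 0.01 to 0.26, left 2 calls, mt-Co3 and mt-Rnr1, against 1.28% of genes called lower, and the 15 values ran from -0.71 to -0.14. Without Control replicate 1 there were 3 calls, against 436 of 17427 genes tested called lower. Without Control replicate 2 there were 4, against 439 of 17433, and without IDPN replicate 1 there were 4, against 534 of 17827. Without Control replicate 3 there were 13, against 720 of 15985. In the counts as deposited, mt-Co3, mt-Nd5 and mt-Rnr1 were called whichever library was left out.

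The rows of 7 members do not hold all of the reads from their sequence. Of the counts that fell on mt-Co3 or Gm28437, the nuclear copy was given 92.8% ± 0.414 among Control animals and 94.2% ± 0.246 among IDPN animals (SDs over 3 animals). The groups did not overlap in that split (exact permutation p = 0.1, the smallest possible). The copies took 97.0% ± 0.637 of the mt-Nd4l pair in Control and 97.3% ± 0.490 in IDPN, and 74.6% ± 0.546 and 70.6% ± 5.70 of the mt-Nd3 pair. Gm28661 took 43.3% ± 5.68 and 42.2% ± 7.72 of the mt-Co2 pair and Gm10925 took 26.0% ± 2.49 and 29.3% ± 3.98 of the mt-Atp6 pair. The share was 6.30% ± 0.952 and 6.04% ± 0.338 for mt-Co1, and at most 0.0145% in any library for mt-Nd4, although Gm28439 is identical to mt-Nd4 over all of its bases.

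**Figure D3:**
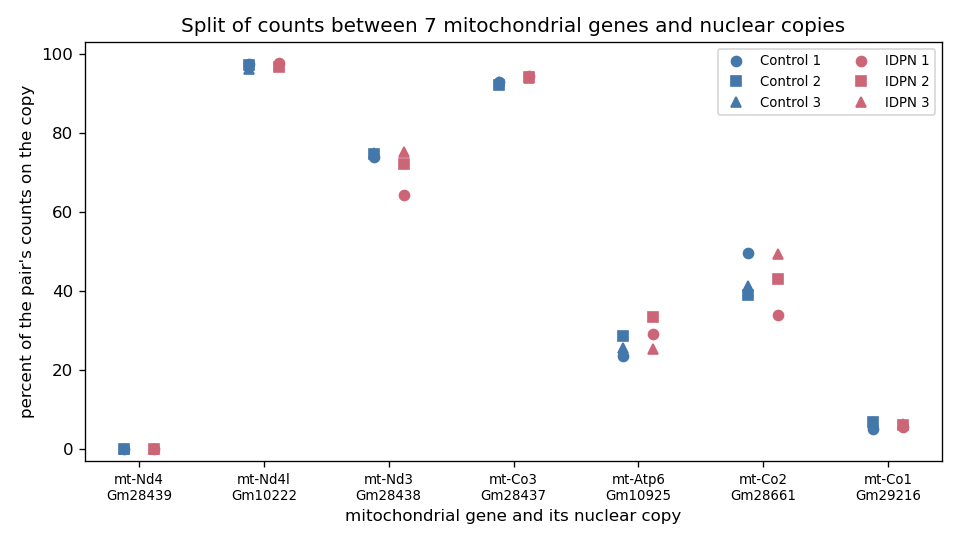
Percent of the counts of each mitochondrial gene and its nuclear copy that were assigned to the copy (vertical axis), for the 7 pairs (horizontal axis), with a symbol per library, Control in blue and IDPN in red. The share is near 0 for mt-Nd4 and between 92.3% and 97.8% in all libraries for mt-Nd4l and mt-Co3.

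When the counts of each copy were summed with its mitochondrial gene, 12 of the 15 members were called lower, against 3.42% of genes tested in that fit. mt-Co3 then read 1061160, 932752 and 715861 in Control and 528137, 652943 and 619499 in IDPN, and its log2-Fold_Change moved from -0.91 to -0.59 (DESeq2 Padj = 0.0217). That call was lost with total-count size factors (Padj = 0.323) and without Control replicate 1 (Padj = 0.192), Control replicate 2 (Padj = 0.142), IDPN replicate 1 (Padj = 0.162) or IDPN replicate 3 (Padj = 0.0876). mt-Nd3 moved from -0.73 to -0.90 (DESeq2 Padj = 0.00255). mt-Nd4l, at 6570, 7072 and 4606 against 2347, 4122 and 3708, was called at -0.84 (DESeq2 Padj = 0.00634), and mt-Co2 at -0.61 (DESeq2 Padj = 0.0157). mt-Atp6 (-0.60, DESeq2 Padj = 0.0893), mt-Atp8 (-0.70) and mt-Cytb (-0.42) were again not called. The edgeR test again called none of the 15 (lowest Padj 0.0683, and 10 with an unadjusted p under 0.05), against 358 of 16303 genes called lower.

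**Figure D4:**
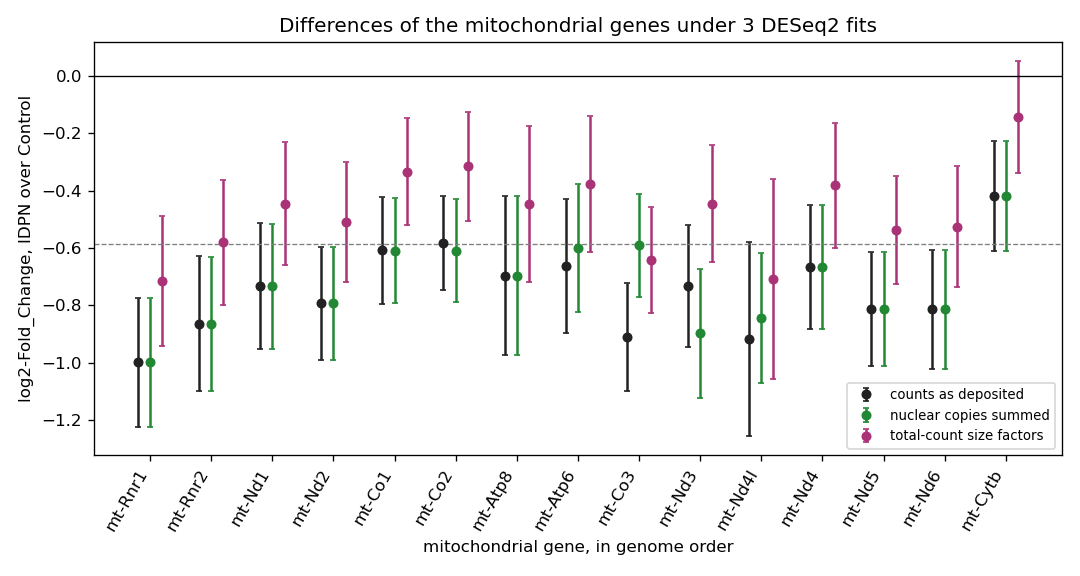
log2-Fold_Change of IDPN over Control (vertical axis) with SE bars for the 15 measured mitochondrial genes in genome order (horizontal axis), from the counts as deposited, with the nuclear copies summed, and with size factors from total counts. The dashed line is the 1.5-fold limit. All points are below 0, and mt-Cytb is nearest to it in each fit.

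The counts of the members relative to each other were compared per length, in mean normalized counts per kilobase. How far these values follow transcript abundance in an oligo-dT library was not tested. With the copies summed, the highest in Control were mt-Atp6 (1168290 ± 327771), mt-Co3 (1152020 ± 222532) and mt-Co1 (1013820 ± 223421), whose SDs (n = 3 each) overlapped, followed by mt-Cytb (742525 ± 167538) and mt-Nd1 (669194 ± 204612). mt-Rnr2 stood at 571484 ± 183038, while mt-Rnr1, cut from the same precursor, stood at 25639 ± 6748 (SD, n = 3). Before summing, mt-Co3 stood at 83126 ± 16384 and ranked behind 8 other members. The lowest per kilobase with the copies summed were mt-Nd6 (14697 ± 3995) and mt-Atp8 (11358 ± 3360). However, mt-Atp8 shares 43 bases with mt-Atp6, and RSEM divides reads that fit both.

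Within the mitochondrial mRNAs, mt-Cytb took a larger share in the IDPN libraries. Expressed as a percent of all mitochondrial mRNA counts, a measure that no size factor touches, mt-Cytb held 18.8%, 19.3% and 19.7% in Control and 21.5%, 21.8% and 22.3% in IDPN. The 2 groups lay apart, at means of 19.3% ± 0.453 and 21.9% ± 0.415 (SDs over 3 animals). The exact permutation p of 0.1, as low as this design allows, became a Padj of 0.26 over the 13 genes. With the nuclear copies summed the shares were 14.8% ± 0.207 and 16.7% ± 0.398. The shares of mt-Nd2, mt-Nd5 and mt-Nd6 were lower in every IDPN library, mt-Nd6 at 0.171% ± 0.00958 in Control and 0.150% ± 0.00681 in IDPN, also with Padj = 0.26. mt-Co3 had a lower share only as deposited, and mt-Nd3 only with the copies summed. The other 8 mRNAs overlapped in their shares as deposited. mt-Co1, at 33.3% ± 0.919 and 33.4% ± 2.68, had nearly equal means.

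**Figure D5:**
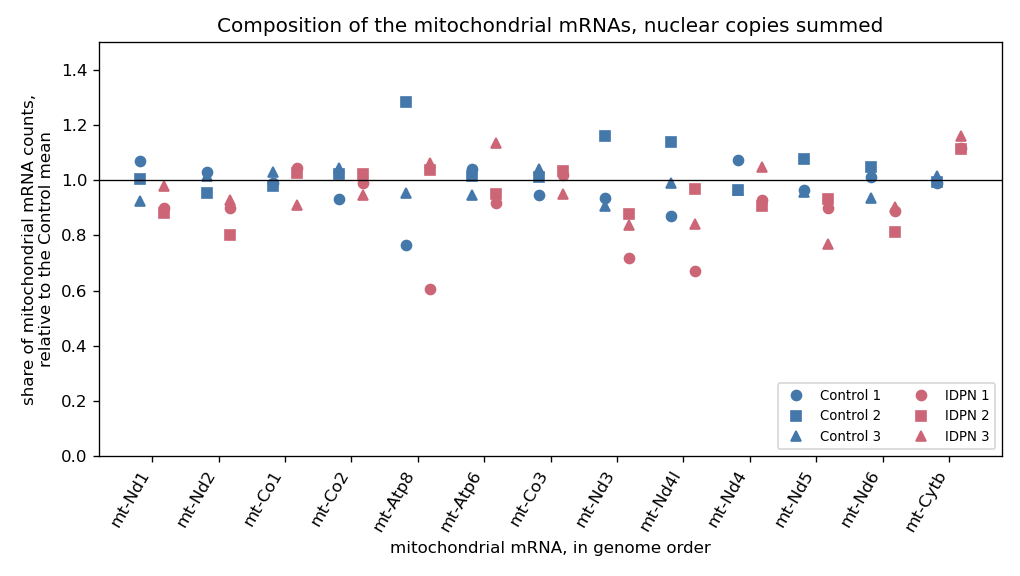
Share of each mRNA among all mitochondrial mRNA counts with the nuclear copies summed, divided by its Control mean (vertical axis), for the 13 mRNAs in genome order (horizontal axis), with a symbol per library, Control in blue and IDPN in red. mt-Cytb is the one gene with all IDPN points above all Control points, and mt-Nd2, mt-Nd3, mt-Nd5 and mt-Nd6 have all IDPN points below.

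The rRNA content relative to mRNA overlapped between the groups. There were 20.8, 23.5 and 17.8 rRNA counts per 100 mitochondrial mRNA counts in Control and 15.8, 18.6 and 17.9 in IDPN (exact permutation p = 0.3). Set against mt-Rnr2, mt-Cytb gave 92.7, 84.0 and 114 counts per 100 in Control and 139, 120 and 128 in IDPN, without overlap (exact permutation p = 0.1). The log2-Fold_Change of the 14 genes on the plus strand was described against their distance from the start of mt-Rnr1. Spearman's rho was 0.29 as deposited and 0.36 with the copies summed, and 0.04 for the 12 mRNAs alone with the copies summed. Over the 7 of these genes that have no nuclear copy it was 0.75. All of these genes share the same 6 libraries.

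Nuclear genes of the same complexes had smaller median differences. Their calls stand beside 3.42% called lower and 2.32% called higher over all genes tested. Of 36 nuclear subunits of complex I, 1 was called lower and none higher, with a median log2-Fold_Change of -0.26 and 35 negative values. Ndufa1, an accessory subunit, read 1602, 1813 and 1592 in Control and 1030, 1121 and 1104 in IDPN, at a log2-Fold_Change of -0.62 (DESeq2 Padj = 0.00259). Complex III (median -0.25, 9 genes) and complex IV (median -0.26, 14 tested, with Cox6a2 at 0) had no call. Complex V had 2 of 15 called lower, Atp5e at -0.68 (DESeq2 Padj = 0.0348) and Atp5h at -0.62 (DESeq2 Padj = 0.0251), with a median of -0.37. Under total-count scaling these 4 medians were 0.01, 0.03, 0.01 and -0.09, so the sign for complexes I, III and IV turned with the scaling, and none of the 3 genes was called. In edgeR only Ndufa1 was called (Padj = 0.0240). Atp5e and Atp5h were called without Control replicate 3 but lost their calls without any other single library, and Ndufa1 lost its call without Control replicate 2 or IDPN replicate 1. Without Control replicate 3, 4 nuclear subunits of complex I, 5 of complex IV and 6 of complex V were called lower. That fit called 720 of 15985 genes tested lower and 611 higher.

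The ratio of mitochondrial to nuclear subunits does not depend on a size factor either. With the copies summed, the mitochondrial mRNAs held 1250, 1007 and 1146 counts per 100 counts of the nuclear subunits of complexes I, III, IV and V in Control and 889, 862 and 956 in IDPN. Every IDPN library was lower (exact permutation p = 0.1). For complex I alone the ratio was 1342, 970 and 965 against 718, 749 and 831, again without overlap. For complex III it was 1943, 1597 and 1713 against 1418, 1400 and 1550, also without overlap (exact permutation p = 0.1), whereas for complex IV (3194 ± 478 and 2763 ± 144) and complex V (314 ± 28.4 and 252 ± 47.7; SD, n = 3 each) the groups overlapped.

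The nuclear machinery that makes and keeps mitochondrial RNA gave a single call. None of 9 genes of mitochondrial transcription was called, with a median log2-Fold_Change of -0.10. Tfam, which packages and activates the mitochondrial genome, read 1062, 982 and 994 in Control and 920, 1020 and 866 in IDPN (log2-Fold_Change -0.11, DESeq2 Padj = 0.813). Polrmt, the mitochondrial RNA polymerase, stood at 0.08 (Padj = 0.892) and Tfb2m, its initiation factor, at -0.14 (Padj = 0.788). Among 33 genes of RNA processing and stability, Lrpprc and Slirp, partners that stabilize mitochondrial mRNAs, stood at -0.15 (Padj = 0.819) and -0.23 (Padj = 0.622). Grsf1, an RNA-binding protein of mitochondrial RNA granules, was upregulated, at 1181, 2049 and 3147 in Control and 3725, 3739 and 3967 in IDPN (log2-Fold_Change 0.84, DESeq2 Padj = 0.0286). Its Control libraries spanned a wide range, and the call was lost in edgeR (Padj = 0.165) and without any single library other than Control replicate 3.

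Genes that copy the mitochondrial genome and regulate mitochondrial number showed no call. Among 17 replication genes (median -0.01), Polg, the replicative polymerase, stood at 0.41 (DESeq2 Padj = 0.210), Twnk, the helicase, at -0.01 (Padj = 0.990) and Ssbp1, the single-strand binding protein, at 0.16 (Padj = 0.765). Ppargc1a, a coactivator that drives mitochondrial biogenesis, stood at -0.22 (Padj = 0.652), in a list of 11 regulators with a median of 0.20. The 13 mitochondrial translation factors (median 0.04) and 23 genes of the mitochondrial membrane, import and matrix (median -0.05) had no call, nor had 4 subunits of complex II (median -0.07) and 11 mitochondrial chaperones and proteases (median -0.04). Over the 9 mitochondrial lists without a call, 13 of 111 genes had an unadjusted p under 0.05 in DESeq2, and edgeR called none. No share over all genes was taken for that unadjusted limit, so the count cannot be set against it. The mitochondrial mRNAs with copies held 3031, 2683 and 2716 counts per 100 counts of the membrane, import and matrix genes in Control and 1975, 1847 and 2209 in IDPN, without overlap (exact permutation p = 0.1).

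Marker lists of the cells in the tissue differed in their direction. Over all genes tested, 3.42% were called lower and 2.32% higher. Of 18 HC markers, 11 were downregulated and none upregulated, and their summed normalized counts ran from 59140 to 60964 in Control and from 30661 to 35576 in IDPN. Of 10 supporting cell markers 1 was called lower (Gjb6, a gap junction protein) and 1 higher (Sox10), with sums of 324267 to 456861 and 232773 to 281838. Dark and transitional cell markers had no call among 6, with overlapping sums (52816 to 86852 and 51970 to 61442). Of 8 neuron markers, 6 were tested and 3 were called lower (sums 4975 to 5219 and 3119 to 3418). Of 5 erythroid markers, 4 were called higher (sums 16167 to 36635 and 34689 to 49091). Schwann cell (7 genes), macrophage (8) and stroma (6) lists had no call. A skeletal muscle list of 6 genes, 2 of them tested, had 1 lower (Tnnt3) with sums of at most 48.5 in any library. A list of 5 nuclear-retained RNAs had no call and overlapping sums (62161 to 86067 and 51878 to 84901). These counts do not measure RNA integrity, and no integrity value was compared. Over the 5 lists without a call, 11 of 32 genes had an unadjusted p under 0.05 in DESeq2, again with no share over all genes to set it against. edgeR called 10 HC markers and 2 neuron markers lower, no supporting cell marker lower, no erythroid marker, and 1 nuclear-retained RNA higher. Over all 16310 genes in that test, 357 were called lower and 166 higher. With total-count size factors, 6 HC markers and 0 neuron markers were called lower, against 214 of 16712 genes tested. In the same fit, 5 erythroid markers, 1 macrophage marker, 1 stroma marker and 1 nuclear-retained RNA were called higher, against 609 of 16712. Without single libraries, 10 to 12 HC markers were called lower, 1 to 3 neuron markers lower and 0 to 4 erythroid markers higher. Those fits called 436 to 720 genes lower and 234 to 611 higher, of 15985 to 17827 tested. The part of any of these in the mitochondrial result was not tested. Marker sums do not give cell numbers. The authors attribute the lower counts of HC-specific genes mainly to lower expression in HCs still present, with limited HC loss.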

How the data were processed

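The authors aligned paired reads to the mouse genome GRCm38 with STAR 2.5.3a and estimated counts per gene with RSEM 2.3.0 on a GENCODE annotation. The deposited values were RSEM expected counts in whole numbers, neither normalized nor filtered. RSEM divides reads that fit several genes, which bears on the 7 mitochondrial genes with near-identical nuclear copies. Library totals ran from 40474847 to 43566332 counts, without molecular identifiers, so intervals from counting cover counting error only.

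Differences were tested with the DESeq2 1.42.0 Wald test in R 4.3.3, fitted to all genes with median-of-ratios size factors, and called at Padj under 0.05 and a change over 1.5-fold. Padj is the Benjamini-Hochberg value over all genes tested. edgeR 4.0.16 (quasi-likelihood), other size factors, other filters and leaving out each library were alternatives. Ratios and shares were compared by two-sided exact permutation tests (scipy 1.17.1), which cannot fall below 0.1. Scripts were tested on simulated data. Nuclear copies were found by aligning GENCODE transcripts with blastn 2.17.0 (at least 200 aligned bases and 95% identity, summed at 99% or more), and coordinates and sequences came from a GENCODE release on GRCm38 later than the authors' release. Summing the copies, and the alternatives for the nuclear gene lists, were chosen after seeing the data.

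All 37 mitochondrial genes were accounted for, 9 nuclear genes of mitochondrial RNA and DNA upkeep were always named, and at most 4 called genes with a mean of at least 100 normalized counts were named from each nuclear list. The members and lists were chosen with earlier results of these data known. Lists were described by counts and medians, without a set test. P-values rest on 3 animals per group, and those of DESeq2 and edgeR also on dispersions moderated across genes.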

Additional observations from a re-analysis of the deposited data

How the results depend on the processing

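All 15 measured mitochondrial genes kept a negative log2-Fold_Change under every alternative run, but the number called, 10 as reported, did not hold. It was 0 with edgeR (357 of 16310 genes tested called lower) and 2 with size factors from total counts (214 of 16712). It was 0 when DESeq2 tested against a 1.5-fold change (111 of 19061). When a library was left out, it ran from 3 without Control replicate 1 (436 of 17427) to 13 without Control replicate 3 (720 of 15985). With the nuclear copies summed it was 0 with edgeR (358 of 16303 genes called lower) and 1 with total counts (211 of 16707). Without single libraries the summed counts gave from 2 without Control replicate 1 (434 of 17423) to 14 without Control replicate 3 (715 of 15981). As deposited, the number called stayed between 8 and 11 under the 7 other choices of filter, threshold and size factor, 8 being of the 13 mRNAs alone. Those 7 fits called 564 to 689 genes lower, of 15472 to 25649 tested. The log2 difference of the summed mRNAs, -0.59 as reported, ran from -0.78 to -0.41 without single libraries and was -0.33 with total-count scaling. The log2 difference of the rRNAs, -0.83 as reported, ran from -1.12 to -0.65 and was -0.57 with total-count scaling. The number of mRNAs whose shares did not overlap, 5 as reported, was 3 as shares of all mitochondrial rows and 5 to 9 without single libraries, the 9 without IDPN replicate 3. In the nuclear lists of mitochondrial function, 3 of 195 genes tested were called lower and 1 higher, against 604 and 410 of 17650 over all genes. With total counts 0 were lower (214 of 16712 over all genes). With edgeR 1 was lower and 0 higher (357 and 166 of 16310). Without single libraries 0 to 15 were lower and 0 to 4 higher, the highest counts both without Control replicate 3. Over all genes, the fits without single libraries called 436 to 720 lower and 234 to 611 higher. The cause of these shifts was not tested. Shares that changed direction, in percentage points of IDPN minus Control, were those of mt-Co1 (0.10 as reported, -0.69 to 1.65 without single libraries, -0.15 with copies summed), mt-Co2 (0.037, -0.40 to 0.43, -0.091 with copies summed), mt-Atp6 (-0.48, -1.66 to 0.12, 0.019 with copies summed), mt-Atp8 (-0.0050, -0.012 to 0.0031), mt-Nd3 (-0.0091, -0.016 to 0.0014) and, with copies summed, mt-Co3 (-0.29 to 0.026). No paired analysis was possible because the labels carry no replicate numbers shared between the groups. mt-Nd4l had the fewest counts as deposited and the largest SE (0.34), and the tRNAs were listed at 0 and gave no value.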
